A study of Homo sapiens with 6 samples.

Results

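The genes described here make sterols and fatty acids or control that synthesis: 17 sterol enzymes, 6 regulators and carriers, and 9 fatty acid enzymes, 32 genes in all. A gene was taken as measured where at least 1 probe set named that gene and no other, and its brightest such probe set stood for it. This gave 30 measured genes of 18132 in the series: 15 sterol enzymes, all 6 regulators and carriers, and all 9 fatty acid enzymes. FDFT1 (squalene synthase) was not analysed here, and CYP51A1, a sterol demethylase, was named only together with LRRD1, so it is given apart. Messenger RNA was measured on 1-colour biotin-labelled arrays in U87, an established human glioma line, with 3 samples that overexpressed miR-151a and 3 that overexpressed a negative control, miR-NC. Both groups are thus labelled as overexpressing a microRNA or its control. Not given in the sources used here are the vector, the arm of miR-151a, the time and the medium. Samples are called by the replicate number in their labels, such as miR-NC sample 2.

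Cells build cholesterol from acetyl-CoA by the mevalonate pathway, which ends in farnesyl diphosphate. That product is joined to squalene, closed into lanosterol and trimmed to cholesterol in the endoplasmic reticulum. Fatty acids are built from the same acetyl-CoA by a carboxylase and a synthase, then lengthened by elongases and given double bonds by desaturases. Both branches are switched on by the SREBP transcription factors, encoded by SREBF1 and SREBF2. SCAP carries these factors from the endoplasmic reticulum to the Golgi when sterols are scarce, and INSIG1 and INSIG2 hold SCAP back when sterols are plentiful. SREBP acts at promoters together with partners such as NF-Y, which binds the CCAAT box. Glioblastoma cells are known for their need of cholesterol and of desaturated fatty acids.

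With miR-151a, levels of 3 sterol enzymes (SQLE, MSMO1 and EBP) and of 2 fatty acid enzymes (ACACA and SCD) fell, and 1 sterol enzyme, LSS, rose. Among the brightest probe sets the desaturase SCD changed most and fell by 23.5%. With the mean over probe sets the largest fall was that of the elongase ELOVL6, with a log2 fold change of -0.35 beside -0.29 for SCD. None of the 6 regulators and carriers passed the test. Each call is a limma test on log2(intensity + 1) with Benjamini-Hochberg adjustment over all 18132 genes and a threshold of 0.05. Of all genes, 8.11% were called lower and 7.27% higher. Of the members, 5 of 30 (16.7%) were called lower and 1 (3.33%) higher. Estimates below 0 were found for 26 of 30 members, beside 52.6% of all genes. All 3 miR-151a values lay below all 3 miR-NC values for 18 of 30 members, beside 19.4% of all genes, and above them for 1, LSS, beside 15.1%. The median log2 fold change was -0.08 for the sterol enzymes, -0.14 for the regulators and carriers and -0.15 for the fatty acid enzymes, beside -0.01 for all genes. Fewer of all genes were called lower when a sample was left out than with all 6 samples (1470). The count of sterol enzymes called lower fell too, but that of fatty acid enzymes did not always. The count of sterol enzymes called lower was 2, 1 and 1 without miR-151a samples 1, 2 and 3 and was 1, 0 and 1 without miR-NC samples 1, 2 and 3. For the fatty acid enzymes it was 2, 3 and 1 and then 2, 1 and 1, while 800 to 1021 of all genes were called lower in these fits. The genes were listed with earlier results of these data known, so these counts describe the list and are not independent evidence of its direction.

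**Figure D1:**
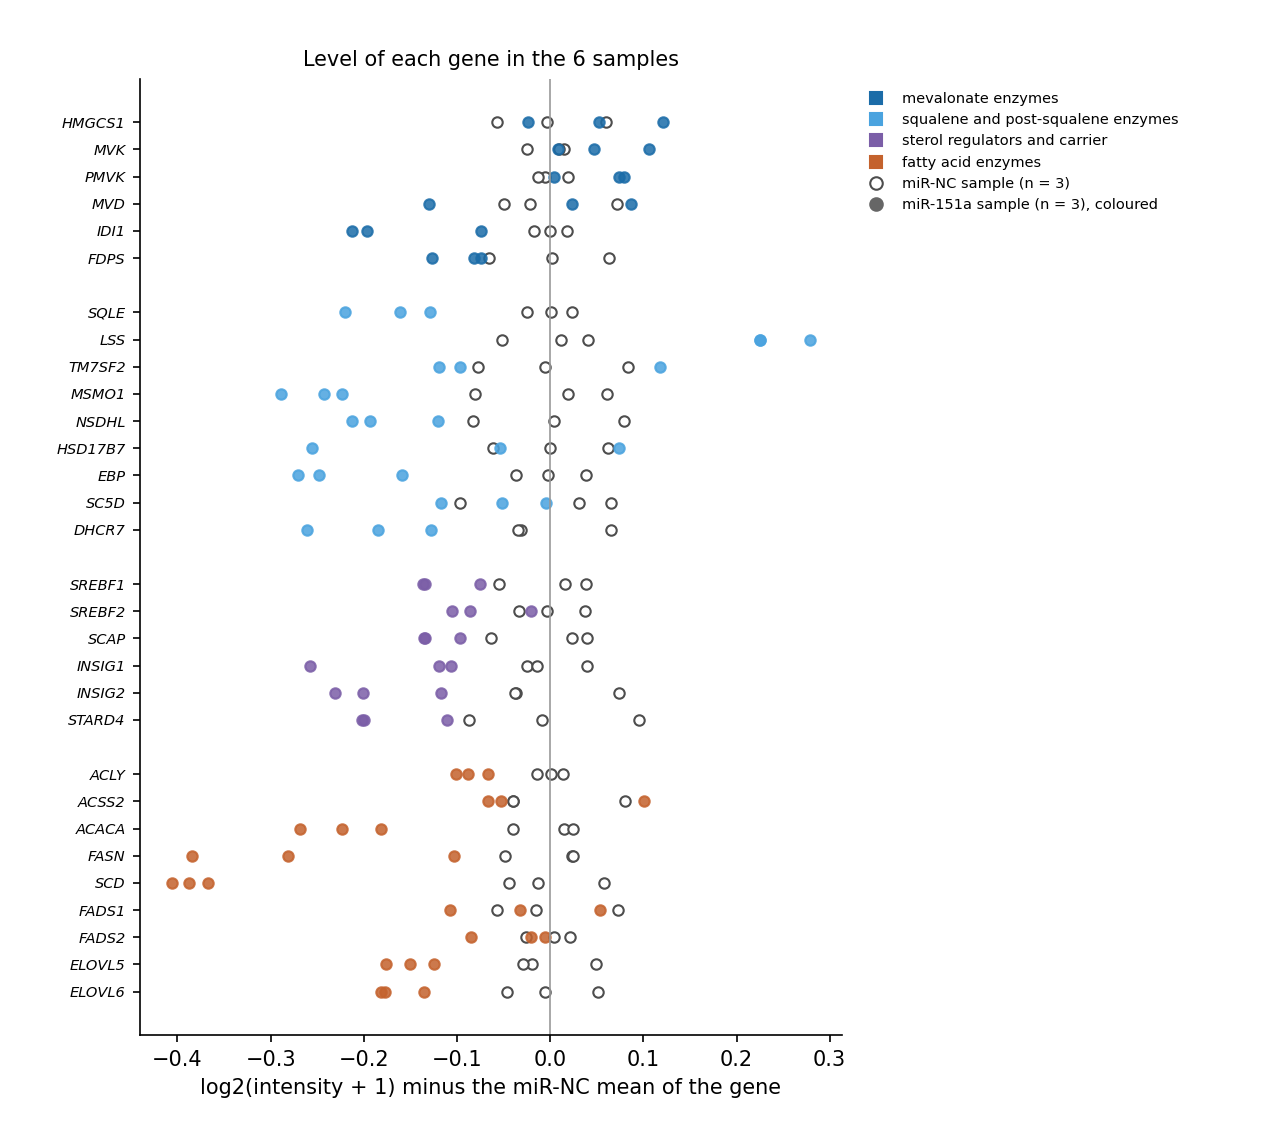
Level of each of the 30 measured genes in each of the 6 samples, as log2(intensity + 1) minus that gene's mean over the 3 miR-NC samples (horizontal axis); open circles are miR-NC samples and filled circles, coloured by gene group, miR-151a samples. The filled circles lie wholly left of the open ones for 18 genes and wholly right of them for LSS.

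Median intensities of the 6 arrays ran from 57.1 to 58.6. Mature miR-151a was not analysed here, so the labels' overexpression was not checked. Separate cultures are not named in the labels, and the p-values then measure only how these samples spread, which could be technical. The median within-group SD of the members was 0.052 on the log2 scale, beside 0.075 for all genes. Their mean levels lay from the 40.4th to the 98.8th percentile of all genes, with a median at 74.8. The members were thus brighter and less spread than all genes. The shares of all genes set beside them were not matched for level or spread. In bulk RNA, fewer cells expressing a gene and less RNA per cell cannot be told apart. Of 10 listed markers of glioma or U87 cells, VIM, CD44, FN1, CAV1, NES and S100A6 lay above the median gene level, while the glial genes GFAP, OLIG2, SOX2 and S100B lay below it. NES was lower with miR-151a (log2 fold change -0.31, limma adjusted p = 0.0079). Of 10 markers of other cell types, 9 lay below the median gene level, and none passed in limma, with 1 at an unadjusted p under 0.05. Their summed intensity ran from 279.8 to 324 with miR-151a and from 302.2 to 322 with miR-NC. The 3 prime to 5 prime log2 ratio of the control probe sets ran from 0.27 to 0.30 with miR-151a and from 0.37 to 0.43 with miR-NC for beta-actin. For GAPDH the ranges overlapped, at 0.045 to 0.052 with miR-151a and 0.029 to 0.049 with miR-NC. For 18S ribosomal RNA it ran from 0.352 to 0.408 and from -0.538 to -0.463. The part of these ratios in the results on the gene groups was not tested.

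Many of these genes, though not all, hold a CCAAT box just upstream of their start. The genes were not chosen by sequence. They belong to pathways that SREBP switches on with partners such as NF-Y, so the share with a CCAAT box is not independent of the choice. The 250 bases upstream of each annotated start were taken from RefSeq (GRCh38.p14) and searched on both strands for CCAAT, for the sterol response form TCACNCCAC and for the E-box CACGTG, whose matches did not overlap one another. Windows were matched for 28 of the 30 measured members, all but SQLE and FASN. CCAAT, or its reverse ATTGG, was found for 21 of 28 members (75%), beside 40.5% of the 14425 measured genes with a window and 32% of all 35116 windows. It was found for 13 of 14 sterol enzymes, 3 of 6 regulators and carriers and 5 of 8 fatty acid enzymes. TCACNCCAC was found for 1 member, SREBF2, beside 0.883% of all windows and 1.21% of measured genes. Only this exact form was searched, within 250 bases, so a gene without a match may still hold another form or a site elsewhere. CACGTG was found for SC5D, SCAP, INSIG1 and ELOVL5, 4 of 28 (14.3%), beside 6.34% of windows and 9.82% of measured genes. A match is a description of letters, not a measured binding site.

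The upstream windows of 3 genes that fell and of the gene that rose are shown, 5′ to 3′ on the gene's own strand, since the same box stands before genes that moved in opposite directions. Capitals mark CCAAT or ATTGG. SCD lies at chr10:100346983-100347232 (plus strand), MSMO1 at chr4:165327419-165327668 (plus strand), EBP at chrX:48521558-48521807 (plus strand) and LSS at chr21:46228775-46229024 (minus strand).
SCD: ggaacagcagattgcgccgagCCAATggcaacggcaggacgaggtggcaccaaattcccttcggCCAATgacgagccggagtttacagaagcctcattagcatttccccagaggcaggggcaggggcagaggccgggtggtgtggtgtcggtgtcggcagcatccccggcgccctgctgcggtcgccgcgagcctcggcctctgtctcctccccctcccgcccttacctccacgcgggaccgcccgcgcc
MSMO1: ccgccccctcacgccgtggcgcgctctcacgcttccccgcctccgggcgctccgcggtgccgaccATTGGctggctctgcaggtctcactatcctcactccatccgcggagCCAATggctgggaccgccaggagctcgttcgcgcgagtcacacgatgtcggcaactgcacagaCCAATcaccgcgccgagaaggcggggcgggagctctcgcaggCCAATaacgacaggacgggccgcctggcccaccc
EBP: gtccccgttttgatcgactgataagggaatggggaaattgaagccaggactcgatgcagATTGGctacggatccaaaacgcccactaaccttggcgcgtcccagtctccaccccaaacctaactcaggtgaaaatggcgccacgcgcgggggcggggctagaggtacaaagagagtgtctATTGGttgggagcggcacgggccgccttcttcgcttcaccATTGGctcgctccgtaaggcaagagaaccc
LSS: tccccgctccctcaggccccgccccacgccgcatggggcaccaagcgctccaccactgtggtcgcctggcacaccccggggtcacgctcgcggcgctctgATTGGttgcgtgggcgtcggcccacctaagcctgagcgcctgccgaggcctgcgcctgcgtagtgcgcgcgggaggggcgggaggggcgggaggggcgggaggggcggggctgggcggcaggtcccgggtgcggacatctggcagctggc
In the windows shown, MSMO1 holds 4 such boxes, EBP 3, SCD 2 and LSS 1. ACACA, which also fell, holds 2 in its window with most boxes. MVK and NSDHL, which were not called over genes, hold several each. Whether the number of boxes goes with the change was not tested. The SREBF2 stretch at chr22:41832947-41833005 (plus strand) is shown because it holds the 1 sterol response match among the members. In that stretch capitals mark only the sterol response match, and an ATTGG near its end is left in small letters.
SREBF2: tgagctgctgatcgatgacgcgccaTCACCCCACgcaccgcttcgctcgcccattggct

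None of the 6 mevalonate enzymes passed the limma test, and 1, IDI1, had an unadjusted p under 0.05, beside 28.8% of all genes. With the mean over probe sets, MVK passed as higher (log2 fold change 0.21 in place of 0.05, adjusted p = 0.015) and IDI1 as lower (-0.17, adjusted p = 0.026). IDI1, which turns isopentenyl diphosphate into its reactive isomer, had intensities of 341, 313 and 309 with miR-151a and 363, 359 and 354 with miR-NC. The groups did not overlap, and miR-151a sample 1 lay nearest to the controls. The log2 fold change of IDI1 was -0.16 (95% interval -0.28 to -0.04, limma adjusted p = 0.078), and it passed as lower in 5 of the 14 alternatives, such as without miR-151a sample 1 (adjusted p = 0.037, range 0.013 to 0.2). FDPS, which makes farnesyl diphosphate, had intensities of 549, 546 and 529 with miR-151a and 552, 578 and 604 with miR-NC, and again the groups did not overlap. Its log2 fold change was -0.09, and the interval, -0.21 to 0.02, included 0. HMGCS1, the enzyme that makes HMG-CoA, had intensities of 139.8, 126 and 133 with miR-151a and 123, 134 and 128 with miR-NC, and the groups overlapped. The intervals of the log2 fold change were -0.08 to 0.18 for HMGCS1, -0.05 to 0.16 for mevalonate kinase (MVK), -0.05 to 0.16 for phosphomevalonate kinase (PMVK) and -0.16 to 0.15 for the decarboxylase MVD. These intervals all include 0 and leave out a fall of the size seen for SCD. A dimmer probe set of HMGCS1 lay at -0.15, lower without overlap (limma adjusted p over all probe sets = 0.19). Averaged over its probe sets, HMGCS1 was at -0.05 (limma adjusted p over genes = 0.47). The median log2 fold change of the 6 genes, over their brightest probe sets only, was 0.02. Whether these genes differ in response from the later sterol enzymes was not tested.

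Of 9 measured squalene and post-squalene enzymes, 3 fell and 1 rose, beside 8.11% and 7.27% of all genes, and 8 of 9 estimates were below 0, beside 52.6%. SQLE, the epoxidase that adds oxygen to squalene, had intensities of 306, 319 and 326 with miR-151a and 357, 351 and 363 with miR-NC. Every miR-151a value lay below every miR-NC value. SQLE fell by 11.1% (log2 fold change -0.17, SE 0.05, limma adjusted p = 0.044). This call was lost in each fit that left out 1 sample, with adjusted p of 0.1, 0.09 and 0.069 without miR-151a samples 1, 2 and 3 and of 0.11, 0.099 and 0.14 without miR-NC samples 1, 2 and 3 (range over all 14 alternatives 0.006 to 0.14).

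MSMO1, the methyl sterol oxidase that starts removal of the methyl groups at carbon C-4, had intensities of 597, 589.5 and 571 with miR-151a and 728, 707 and 659.7 with miR-NC. The groups did not overlap, with miR-NC sample 3 the lowest control. MSMO1 fell by 16% (log2 fold change -0.25, SE 0.05, limma adjusted p = 0.017). Its adjusted p was 0.06, 0.062 and 0.063 without miR-151a sample 3, miR-NC sample 1 and miR-NC sample 2 (range over the alternatives 6.5e-05 to 0.063). EBP, the isomerase that shifts a ring double bond late in the pathway, had intensities of 1005, 989 and 1069 with miR-151a and 1164, 1192 and 1227 with miR-NC. Here too the groups did not overlap. EBP fell by 14.5% (log2 fold change -0.23, SE 0.05, limma adjusted p = 0.021). Its adjusted p lay between 0.062 and 0.078 without miR-151a sample 1 or 2 or miR-NC sample 2 or 3 (range over the alternatives 6e-05 to 0.078).

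LSS moved the other way. This gene encodes lanosterol synthase, which closes the product of SQLE into the first sterol ring system. Its intensities were 357, 370.1 and 357 with miR-151a and 294, 314 and 308 with miR-NC, and all miR-151a values lay above all miR-NC values. LSS rose by 18.4% (log2 fold change 0.24, SE 0.05, limma adjusted p = 0.012). It passed in all 14 alternatives, with adjusted p from 0.00024 to 0.048. Its other 2 probe sets had log2 fold changes of 0.27 and 0.26, of which the first passed over all probe sets (adjusted p = 0.04 and 0.096).

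The remaining post-squalene enzymes did not pass. DHCR7, which makes cholesterol from its last precursor, had intensities of 221, 242 and 233 with miR-151a and 277, 259 and 259 with miR-NC. Its groups did not overlap, and the log2 fold change of -0.19 had a limma adjusted p of 0.053, just short of the threshold. NSDHL, a dehydrogenase of C-4 demethylation, had intensities of 353, 358 and 376 with miR-151a and 386, 432 and 411 with miR-NC, also without overlap (log2 fold change -0.18, adjusted p = 0.078). The DHCR7 and NSDHL tests passed in 5 and 3 of the 14 alternatives. For TM7SF2, a sterol reductase, the interval was -0.21 to 0.14, and for HSD17B7, a keto reductase of the same C-4 step, -0.27 to 0.12. HSD17B7 was the dimmest member, with a mean of 45.5 ± 2 (SD, n = 3) with miR-NC. SC5D, a sterol desaturase, had an interval of -0.19 to 0.08. CYP51A1 was read by 2 probe sets that also name LRRD1: 1 had 433 ± 28.8 under miR-151a against 495 ± 53.8 under miR-NC (SD, n = 3 each), and the groups overlapped. The other had a log2 fold change of 0.03 (95% interval -0.12 to 0.18), and neither passed over all probe sets (adjusted p = 0.19 and 0.8).

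**Figure D2:**
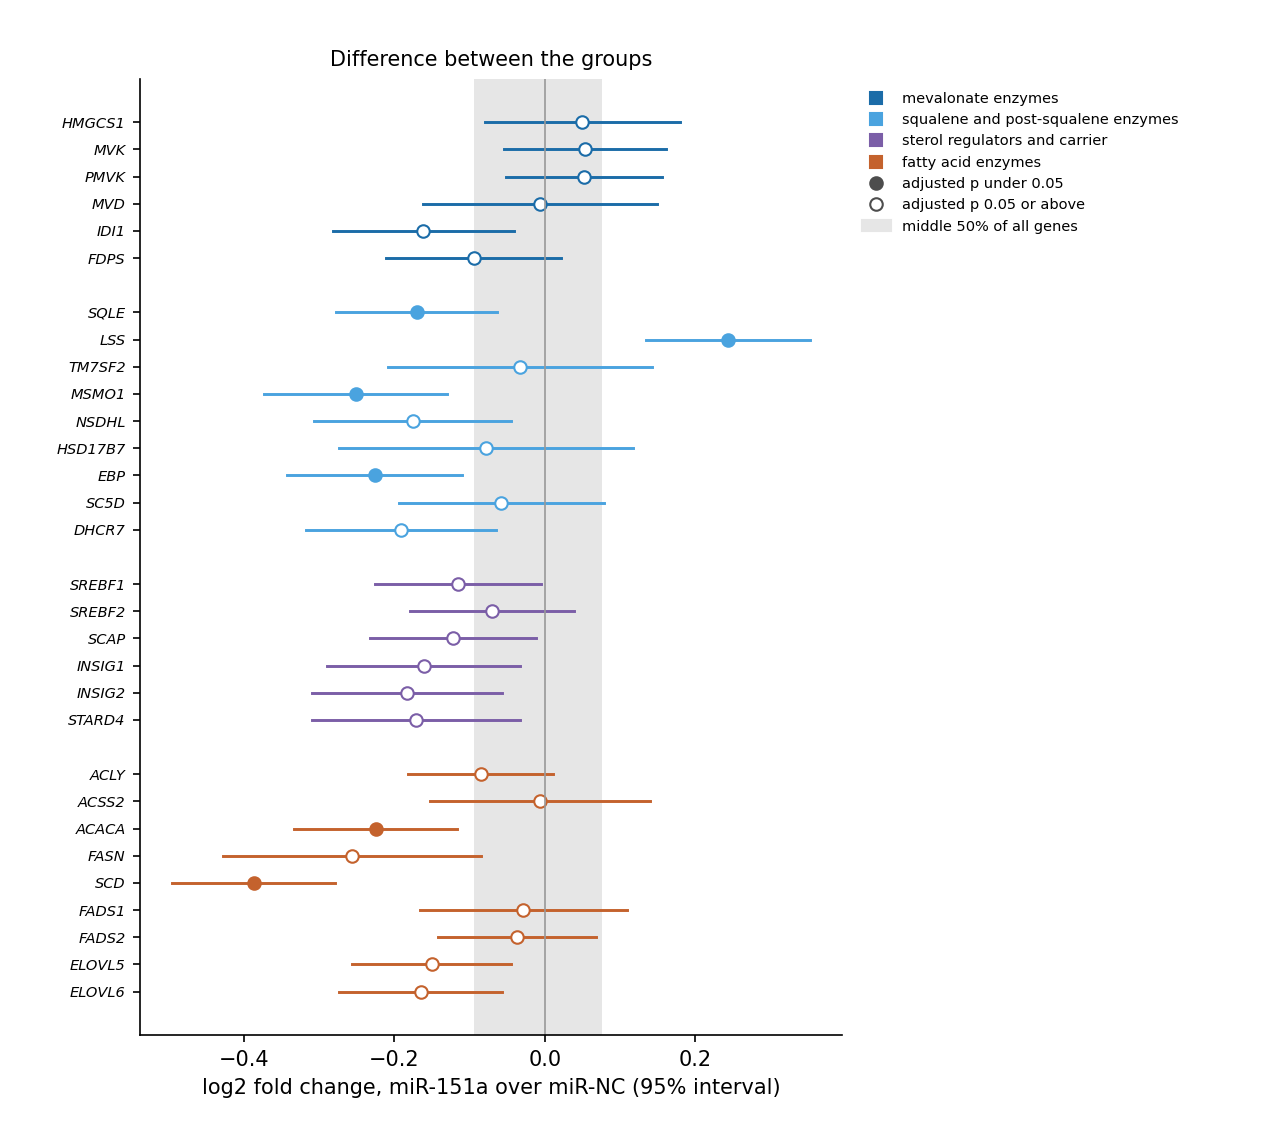
Log2 fold change of each measured gene, miR-151a over miR-NC, with its 95% interval from limma (n = 3 per group); filled points passed an adjusted p of 0.05, and the grey band holds the middle 50% of all 18132 genes, from -0.09 to 0.08. SCD lies farthest to the left at -0.39 and LSS alone is filled on the right at 0.24.

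None of the 6 regulators and carriers passed in limma, and 5 of 6 had an unadjusted p under 0.05, all lower, beside 16% of all genes lower at that p. All 6 estimates were below 0, from -0.18 to -0.07. SREBF1, whose product drives fatty acid genes above all, had intensities of 202, 193 and 194 with miR-151a and 218, 215 and 205 with miR-NC, with no overlap (log2 fold change -0.12, adjusted p = 0.15). SREBF2, whose product drives sterol genes above all, had intensities of 131, 137 and 129 with miR-151a and 143, 136 and 139 with miR-NC, and miR-151a sample 2 lay within the control range (log2 fold change -0.07, adjusted p = 0.38). SCAP, the escort protein, had intensities of 389, 389.7 and 399.8 with miR-151a and 409, 439.5 and 435 with miR-NC, again without overlap (log2 fold change -0.12, adjusted p = 0.13).

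Both INSIG genes lay lower with miR-151a in every sample, without passing. INSIG1, itself a target of SREBP, had intensities of 1713, 1697 and 1542 with miR-151a and 1895, 1813 and 1826 with miR-NC, and miR-151a sample 3 was the lowest (log2 fold change -0.16, adjusted p = 0.096). INSIG2 had intensities of 204, 221 and 209 with miR-151a and 253, 234 and 234 with miR-NC (log2 fold change -0.18, adjusted p = 0.06). Both dimmer probe sets of INSIG2 passed as lower over all probe sets, at -0.23 and -0.38 on the log2 scale. Those of INSIG1 did not, at -0.08 and -0.10. STARD4, which carries cholesterol between membranes, had intensities of 144, 153 and 144 with miR-151a and 177, 165 and 156 with miR-NC, with no overlap (log2 fold change -0.17, adjusted p = 0.1). Its 4 other probe sets ran from -0.17 to 0.05, none of them past the threshold in limma or at an unadjusted p under 0.05, and the mean over probe sets was -0.08 (adjusted p = 0.32). For SREBF2 that mean was -0.02 (adjusted p = 0.8) and for INSIG1 -0.11 (adjusted p = 0.14). With a pseudocount of 32 or with a variance trend and robust fit, 4 and 4 of the 6 passed as lower: SCAP, INSIG1, INSIG2 and STARD4 in both. Both settings also called more of all genes lower than the main fit did, with counts given in the last section.

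SCD, the desaturase that puts the first double bond into saturated fatty acids, had the largest fold change among the members' brightest probe sets. Over all of the members' probe sets, 2 of ELOVL6 lay further from 0, at -0.44 and -0.45 on the log2 scale. The intensities of SCD were 1669.7, 1715 and 1691 with miR-151a and 2145, 2302 and 2192 with miR-NC, or 1692 ± 22.5 under miR-151a against 2213 ± 80.8 under miR-NC (SD, n = 3 each). The gap between the groups was wider than either group's whole range. SCD fell by 23.5% (log2 fold change -0.39, SE 0.05, 95% interval -0.50 to -0.28, limma adjusted p = 0.0018). It passed in all 14 alternatives, with log2 fold changes from -0.41 to -0.29. Of its 3 other probe sets, 2 also passed, at -0.27 and -0.32, and the last was at -0.17 (adjusted p = 0.064).

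ACACA, the carboxylase that commits acetyl-CoA to fatty acid synthesis, had intensities of 339, 360.1 and 349.9 with miR-151a and 398, 413 and 416 with miR-NC, with no overlap. ACACA fell by 14.4% (log2 fold change -0.22, SE 0.05, limma adjusted p = 0.017). Its adjusted p was 0.053, 0.064 and 0.064 without miR-151a sample 3, miR-NC sample 2 and miR-NC sample 3 (range over the alternatives 0.0004 to 0.064). FASN, the synthase that builds palmitate, had intensities of 141, 159.6 and 131 with miR-151a and 166, 174 and 174 with miR-NC. The groups did not overlap, but miR-151a sample 2 lay close to the lowest control, and the SE of 0.07 was the widest of the fatty acid enzymes. The log2 fold change of FASN was -0.26 (limma adjusted p = 0.055), past the threshold in 7 of the 14 alternatives, at 0.016 without miR-151a sample 2 (range 0.005 to 0.14).

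Both elongases among the members stood just outside the threshold. ELOVL5, which lengthens polyunsaturated fatty acids, had intensities of 1006, 1043 and 1024 with miR-151a and 1176, 1121 and 1114 with miR-NC (log2 fold change -0.15, adjusted p = 0.065). ELOVL6, which lengthens palmitate, had intensities of 320.3, 319 and 329.8 with miR-151a and 376, 361 and 351 with miR-NC (log2 fold change -0.16, adjusted p = 0.052). Neither pair of groups overlapped. The 2 dimmer probe sets of ELOVL6 gave larger differences than its brightest one. The first had 179 ± 10 under miR-151a against 244 ± 14.7 under miR-NC (SD, n = 3 each) (log2 fold change -0.44, adjusted p over all probe sets = 0.0044), and the other was at -0.45 (adjusted p = 0.022). Averaged over its probe sets, ELOVL6 was at -0.35 (adjusted p over genes = 0.0057), so the size of its difference depends on the probe set by more than 1.5 times.

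Neither the enzymes that supply acetyl-CoA nor FADS1 and FADS2 passed. ACLY, which splits citrate to acetyl-CoA, had intensities of 4118, 4021 and 4055 with miR-151a and 4352, 4314 and 4269 with miR-NC. The groups did not overlap, yet the log2 fold change was -0.09 (95% interval -0.18 to 0.01, adjusted p = 0.23). ACSS2, which makes acetyl-CoA from acetate, had intensities of 199.8, 225 and 202 with miR-151a and 204, 221 and 204 with miR-NC, and miR-151a sample 2 was the highest of all 6 samples. Its interval was -0.15 to 0.14. FADS1 and FADS2, neighbouring desaturases for polyunsaturated fatty acids, had overlapping groups and intervals of -0.17 to 0.11 and -0.14 to 0.07. These 3 intervals include 0 and leave out a fall of the size seen for SCD. A dimmer probe set of FADS1 passed as lower (-0.21, adjusted p over all probe sets = 0.024) while another was at 0.06. All 9 fatty acid enzymes had estimates below 0, from -0.39 to -0.01, beside 52.6% of all genes below 0. An unadjusted p under 0.05 was found for 5 of 9, all lower, beside 16% of all genes. Whether the fatty acid and sterol branches differed was not tested.

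The 30 members were read by 80 probe sets that named 1 gene each. Over all 49293 probe sets, 7.27% were called lower and 6.81% higher. Of the members' probe sets, 17 of 80 were called lower and 3 of 80 higher, and 63 of 80 had estimates below 0, beside 52.7% of all probe sets. The count of 17 was 7 and 7 without miR-151a samples 1 and 3 and was 6, 9 and 6 without miR-NC samples 1, 2 and 3. The count of 3 became 1 without miR-151a sample 2 or miR-NC sample 3, and at most 2 without miR-151a sample 3 or any of miR-NC samples 1 and 2. Not given here are the count of 17 without miR-151a sample 2 and the count of 3 without miR-151a sample 1. The shares of all probe sets called in these fits are not given either, so the loss cannot be set beside that of all probe sets. Of 25 members with several probe sets, 15 had only estimates below 0, 3 (MVK, PMVK and LSS) only estimates above 0, and 7 had both signs.

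Probe sets of 1 gene did not always give the same call. For SQLE, the brightest probe set passed over genes and not over probe sets (adjusted p = 0.058), while 2 dimmer ones passed at -0.21 and -0.24. For MSMO1, 2 of 4 passed as lower, for EBP 2 of 2 and for ACACA 2 of 3. SC5D had 1 of 4 past the threshold as lower, at -0.32 with 50.5 ± 1.33 under miR-151a against 63.2 ± 1.43 under miR-NC (SD, n = 3 each), and the other 3 between -0.09 and -0.03. MVK had 1 of 2 past it as higher, at 0.38 with 93.7 ± 1.42 under miR-151a against 72.2 ± 7.13 under miR-NC (SD, n = 3 each), and its brightest was at 0.05. Which transcripts each probe set reads was not analysed here.

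**Figure D3:**
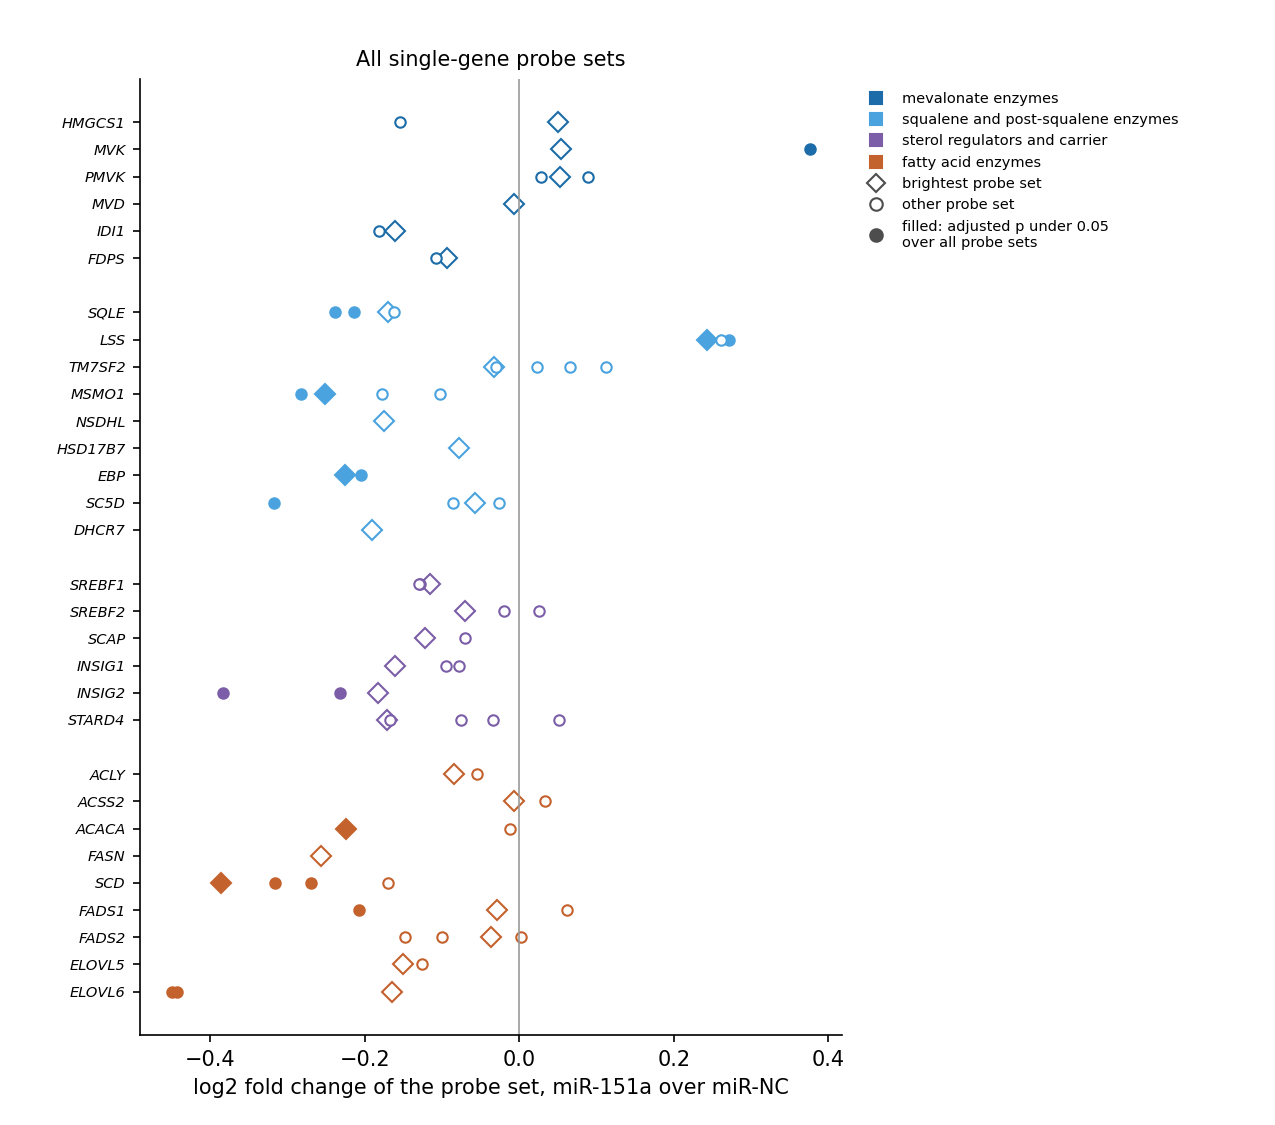
Log2 fold change of each of the 80 single-gene probe sets of the 30 members, miR-151a over miR-NC; diamonds are the brightest probe set of a gene, circles the others, and filled symbols passed an adjusted p of 0.05 over all 49293 probe sets. The 2 filled circles of ELOVL6 lie near -0.44, apart from its diamond at -0.16, and the filled circle of MVK lies at 0.38.

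**Figure D4:**
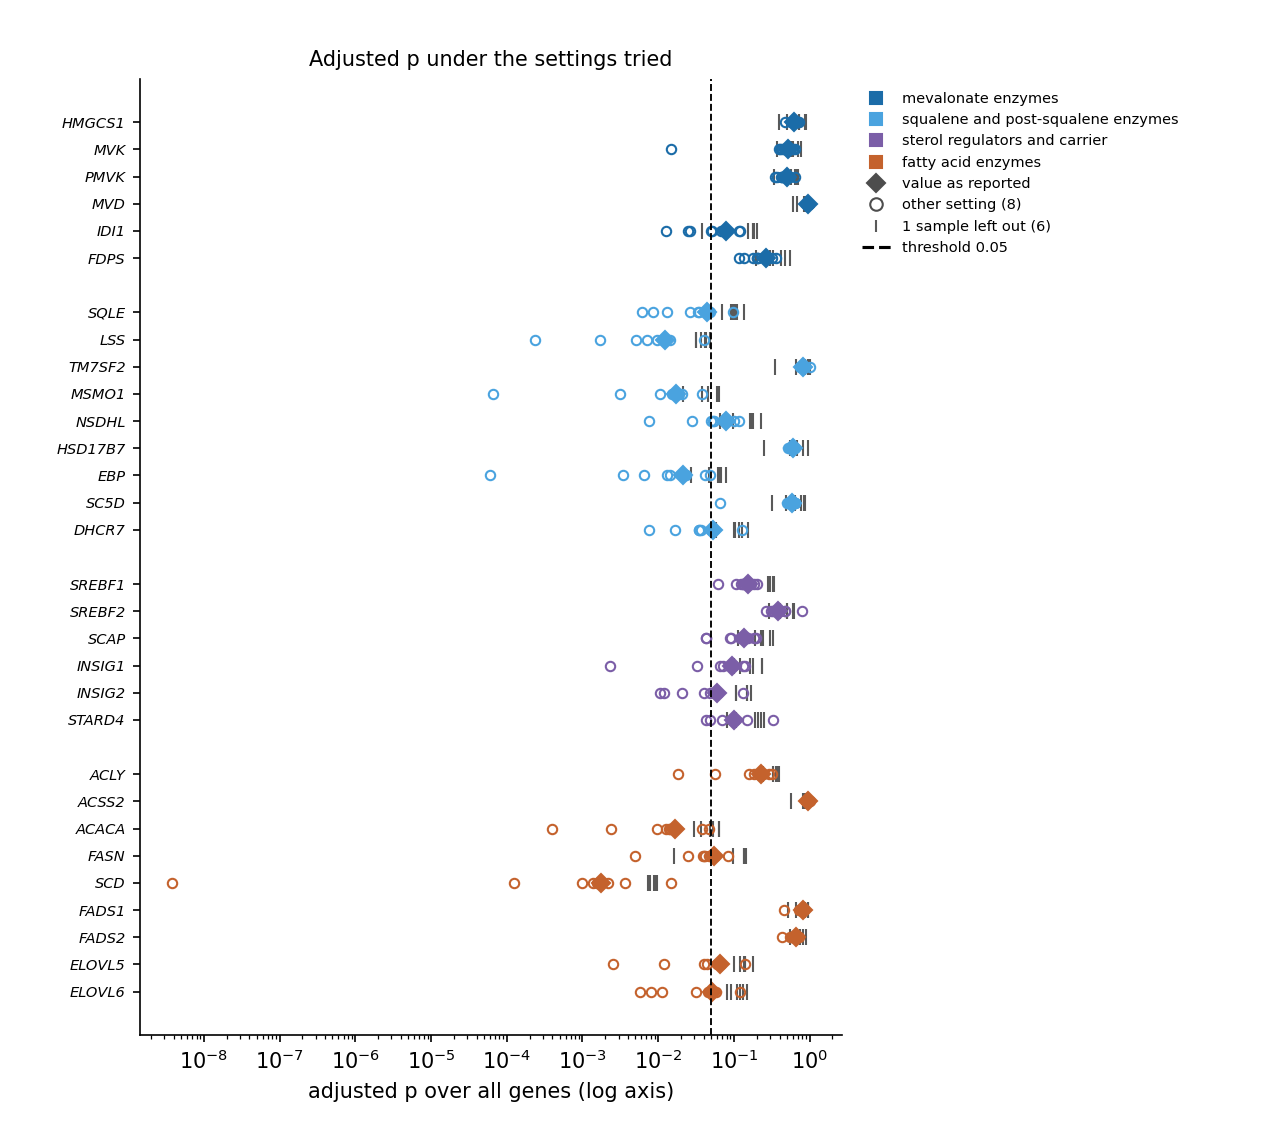
Limma adjusted p over all genes for each member on a log axis: diamonds are the values as reported, circles the 8 other settings, vertical ticks the 6 fits without 1 sample, and the dashed line the threshold of 0.05. SCD and LSS lie left of the line in all of these fits, while SQLE crosses it in every fit without 1 sample.

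Genes next to these pathways were taken from 4 further lists, whose counts stand beside 8.11% of all genes called lower and 7.27% called higher. Of 9 measured genes of SREBP processing and sterol-sensing degradation, 2 fell and 0 rose in limma, with a median of -0.16. At an unadjusted limma p under 0.05, 6 were lower and 1 higher, beside 16% of all genes lower at that p. Estimates below 0 were found for 8 of the 9, beside 52.6% of all genes. ERLIN2, an endoplasmic reticulum scaffold for sterol-controlled degradation, had intensities of 354, 329 and 368 with miR-151a and 442, 449.8 and 434 with miR-NC and fell by 20.7% (limma adjusted p = 0.006). MBTPS2, the protease that makes the second cut in SREBP, fell by 11.5% (adjusted p = 0.033). It did not pass in any fit without 1 sample, and the mean over probe sets was -0.07 for MBTPS2 and -0.10 for ERLIN2, both short of the threshold (adjusted p = 0.32 and 0.12; ranges over the alternatives 0.00084 to 0.32 and 6.4e-06 to 0.12).

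Of 15 measured genes of sterol traffic, storage and efflux, 2 fell and 1 rose, with a median of -0.01. LIPA, the lysosomal lipase that frees cholesterol from its esters, had intensities of 766, 829.6 and 796 with miR-151a and 1059, 1010.3 and 1018 with miR-NC and fell by 22.5% (limma adjusted p = 0.0028). TMEM97, a sterol-regulated membrane protein that binds NPC1, had intensities of 299, 302 and 324 with miR-151a and 366, 397 and 409.5 with miR-NC and fell by 21% (adjusted p = 0.0084). NR1H3, the oxysterol receptor LXR alpha, had intensities of 82.4, 95.5 and 91.1 with miR-151a and 75, 72.9 and 77.8 with miR-NC and rose by 18.7% (adjusted p = 0.037). The NR1H3 call held in 1 of 6 fits without 1 sample, the one without miR-151a sample 1 (range over the alternatives 0.016 to 0.11). ABCA1 and ABCG1, efflux pumps that LXR switches on, had intervals of -0.16 to 0.07 and -0.21 to 0.12. Both were named after their values were seen, and ABCG1 was dim, at 14.2 ± 0.522 (SD, n = 3) with miR-NC.

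Of 10 measured genes of the isoprenoid side branch, 1 fell and 1 rose, shares near those of all genes, with a median of -0.08. PDSS1, which makes the side chain of coenzyme Q, fell by 15.2% (limma adjusted p = 0.021), and FNTA, a prenyltransferase subunit, rose by 13.7% (adjusted p = 0.022). FNTA did not pass in any fit without 1 sample, and PDSS1 did not pass without miR-151a sample 2 or 3 or miR-NC sample 1 or 3 (ranges over the alternatives 0.00013 to 0.083 and 0.0026 to 0.072). Of 23 further genes of fatty acid and glycerolipid synthesis, 2 fell and 2 rose, also near the shares of all genes, with a median of -0.03. SCD5, a second desaturase of the SCD type, had intensities of 184, 186 and 188 with miR-151a and 252, 258 and 234 with miR-NC and fell by 24.8% (adjusted p = 0.002). With the mean over its probe sets SCD5 had a log2 fold change of -0.07 (adjusted p = 0.26, with alternatives running from 2.1e-06 to 0.26). HACD2, a dehydratase of the elongation cycle, fell by 17.9% (adjusted p = 0.0055). ELOVL7, an elongase of saturated fatty acids, had intensities of 399, 421 and 419 with miR-151a and 329, 315 and 312 with miR-NC and rose by 29.4% (adjusted p = 0.0022), and FADS3, a relative of FADS1 and FADS2, rose by 20.3% (adjusted p = 0.0071). LIPA, TMEM97, HACD2, ELOVL7 and FADS3 passed in all 14 alternatives. ELOVL7 thus moved opposite to SCD, and the estimates of ELOVL5 and ELOVL6 lay on the other side of 0 from it.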

How the data were processed

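Messenger RNA from 6 samples of U87 cells was measured on 1-colour arrays. The deposited files hold intensities on a linear scale, 1 per probe set (49395 rows); MAS5 is named in the submitters' processing notes with no role or version, and nothing states how the authors corrected background, summarized probes or scaled arrays. The 102 control probe sets were left out. Gene names come from the platform's annotation, brought up to date in RefSeq by Entrez identifier (44961 of 44988 single-gene probe sets matched). The brightest probe set over all 6 samples stood for each of 18132 genes. Values were taken as log2(intensity + 1) and tested with limma 3.58.1 (lmFit, eBayes; R 4.3.3) without covariates; fold changes and percent changes are on that scale, which understates changes of dim genes. An exact permutation test of 3 against 3 samples cannot go below p = 0.1. The test was checked on simulated data with independent noise per gene. That check required recovery only at a shift larger than any member's change given here, so it does not vouch for the smaller calls. Alternatives were a pseudocount of 32, a filter that drops the dimmest probe sets (quantile 0.25), quantile normalization, median centring, the mean over probe sets, a variance trend with robust fit, weights per array, a block for the replicate number, and leaving out each sample; running them on neighbouring genes and on single probe sets was added after the data were seen. All 32 members were named whatever their values, and up to 3 passing genes per direction of each neighbouring list by p. Members and lists were chosen with earlier results of these data known. Figures used matplotlib 3.10.9.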

Additional observations from a re-analysis of the deposited data

How the results depend on the processing

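Over 14 alternatives, each of the 30 members gave 14 values. Of these 420, 361 stayed on the same side of the threshold, 17 lost a call, 42 gained one, and in 0 did a called member change sign; 6 members without a call changed sign. SCD and LSS passed in all 14. The medians of the 3 gene groups kept their sign: without 1 sample they ran from -0.10 to -0.05 for the sterol enzymes, from -0.16 to -0.12 for the regulators and carriers and from -0.16 to -0.13 for the fatty acid enzymes. The count of sterol enzymes that fell, 3, was 6 with a pseudocount of 32 and with a variance trend and robust fit and 5 with the mean over probe sets, where 2 were higher. Without 1 sample it ran from 0 to 2: 1 without miR-151a sample 2 or 3 or miR-NC sample 1 or 3, and 0 without miR-NC sample 2, where 5 had an unadjusted limma p under 0.05. The count of fatty acid enzymes that fell, 2, was 5 with a pseudocount of 32, with low probe sets removed and for probe sets averaged, 4 with median centring and 6 with a variance trend and robust fit. Without 1 sample it ran from 1 to 3, with 1 without miR-151a sample 3, miR-NC sample 2 or miR-NC sample 3. The count of regulators and carriers that fell, 0, was 4 with a pseudocount of 32 and with a variance trend and robust fit, and 1 with low probe sets removed, with quantile normalization and with the mean over probe sets. Of all genes, 1470 were called lower, 2218 with a pseudocount of 32, 2388 with a variance trend and robust fit and 800 to 1021 without 1 sample. The counts of all genes with low probe sets removed, quantile normalization, median centring and the mean over probe sets are not given here. Member counts under those settings thus cannot be set beside the share of all genes. Fits without 1 sample have fewer samples to test on; the cause of the other shifts was not tested. Deviations of same-numbered samples had correlations of -0.11, -0.15 and 0.07, and only for number 3 was the own number the best match. Such correlations cannot show whether samples were prepared in pairs, and the labels do not say. With the replicate number as a block, 822 of all genes were lower, and 2 sterol and 2 fatty acid enzymes; SQLE was the member not called (adjusted p = 0.096). Detection calls were not used, so signal over background limits the dim probe sets by an amount not known here.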
